A study of Homo sapiens with 16 samples.

Results

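The data described here are 8 nascent RNA profiles of cells that express RECQL5, taken at 0, 10, 25, and 40 min after removal of the transcription inhibitor DRB. They were chosen by name as the profiles labelled WT, and are 8 of the 16 samples of the series. The other 8 were depleted of RECQL5 (KD). Each time point holds 1 sample of clone 15 and 1 of clone 18, each a population grown from a single colony of HEK293T-Rex, a tetracycline-regulated derivative of human embryonic kidney cells. In all 16 samples an shRNA depleted endogenous RECQL5. WT cells were kept in doxycycline, which induces an shRNA-resistant RECQL5 from a doxycycline-responsive promoter, and KD cells spent 4 days without it. WT therefore means a re-expressed protein in an shRNA background and not unmodified cells. The labels give the DRB dose as 100 mM where the study's methods give micromolar, and they attach the minutes to doxycycline where the methods attach them to release from DRB. The minutes are read here as time after release. No gene can be checked or named, since each profile is an average over genes, and the level of RECQL5 itself was not analysed here.

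RNA polymerase II (RNAPII) that has started a gene typically halts a short way downstream of the transcription start site (TSS) until the kinase P-TEFb lets it go on. DRB inhibits P-TEFb, so newly started polymerases collect near the promoter while those already elongating run off the gene, and washing the drug out lets a wave of polymerases enter the gene body together. GRO-seq maps where they are by letting engaged polymerases extend their RNA with a labelled nucleotide in isolated nuclei. At many human promoters a second polymerase also starts in the opposite direction, so nascent RNA is found on both sides of the TSS. RECQL5 is a helicase of the RECQ family that binds RNAPII.

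Each profile holds a mean normalized read depth per base pair, starting 2 kb before the TSS and ending 120 kb after it, which the authors averaged over long genes with each library scaled to 20000000 reads. Depth below is on this scale. Library sizes lay between 19452343 and 32986997 reads (median 24609816). The counting error was at most 0.239% of the mean depth over the first 1 kb and at most 0.138% over 110 to 120 kb, and covers counting error only. The difference between the clones was larger and is the error given here (SD, n = 2 clones). The clones lay closest around the TSS at 25 min, where depth in 35 bins from -2 to 5 kb differed by a mean absolute log2 ratio of 0.06, against 0.12 at 0 min, 0.57 at 10 min, and 0.55 at 40 min. From 5 to 120 kb, in 115 bins, it was 0.06, 0.05, 0.09, and 0.19 at the 4 times. Positions within a profile share reads and genes and are not replicates. A comparison of 2 consecutive times has 2 samples against 2, for which an exact permutation test, two-sided, cannot give a p below 0.33. Changes over all 4 times were therefore also tested as a slope per minute over the 8 samples (exact permutation test, two-sided, smallest possible p 0.000397), adjusted over 13 measures by the Benjamini-Hochberg method. The p-value of a slope is the share of orders of the times that gave a slope at least as steep. Times were exchanged across the 2 clones, or only within each clone where stated. As each clone gave 1 sample per time, these p-values do not measure the spread between clones.

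Around the TSS, WT cells under DRB showed a pair of peaks with a dip between them. At 0 min the downstream peak, taken where a 50 bp running mean was highest in the first 2 kb, had a depth of 42.6 in clone 15 (at 512 bp) and 35.3 in clone 18 (at 580 bp). The upstream peak had 32.4 in clone 15 (at -429 bp) and 27.6 in clone 18 (at -470 bp), which is 0.760 and 0.781 of the downstream peak. The lowest depth between them was 7.05 in clone 15 and 5.72 in clone 18, both just upstream of the TSS. Reads had been extended to 250 bp, which smears these positions, and the strand counted is not given in the sources used here, so the upstream signal cannot be assigned to a strand. The upstream peak and the dip were added as measures after the values were seen and are given without a test.

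**Figure D1:**
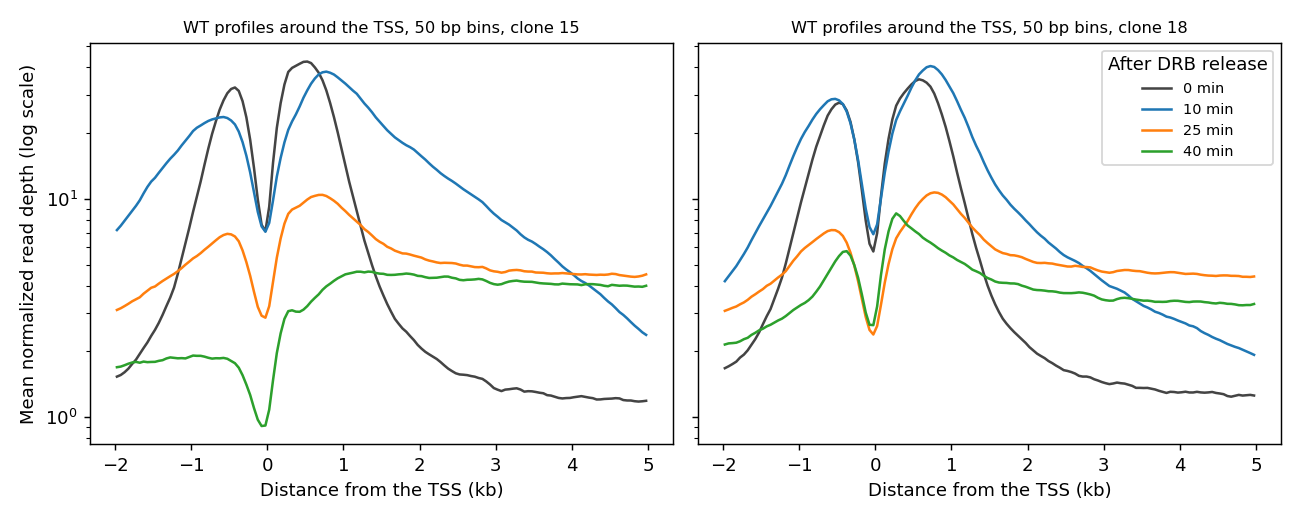
Mean normalized read depth (log scale) in 50 bp bins against distance from the TSS (kb) for WT clone 15 (left) and clone 18 (right), with 1 line per time after DRB release. Both sides of the TSS carry a peak at 0 min that is broader at 10 min and low at 25 min, and at 40 min a promoter peak at 280 bp remains in clone 18 while clone 15 is highest at 1198 bp.

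The promoter peak was lost mainly between 10 and 25 min. Its height at 0, 10, 25, and 40 min was 42.6, 38.3, 10.4, and 4.65 in clone 15. In clone 18 it was 35.3, 40.6, 10.7, and 8.58. The clones thus moved in opposite directions over the first 10 min, to 89.8% and 115% of their 0 min heights, and lay together at 25 min, at 24.5% and 30.3%. By 40 min clone 15 had fallen to 10.9% and clone 18 to 24.3%. No baseline was removed from these heights. In clones 15 and 18 the depth over 5 to 20 kb was 1.16 and 1.23 at 0 min, and 4.64 and 4.44 at 25 min. At 40 min it was 4.01 and 3.20. The shares left at 25 and 40 min thus include the raised depth of the wave. Over the 4 times the height fell by 0.95 per min, with an SD of 0.16 between the clone slopes (exact permutation test, p = 0.00516, adjusted p = 0.0134, falling in both clones). The depth over the first 1 kb followed the same course, with 31.3, 27.4, 8.63, and 3.19 in clone 15 and 25.9, 29.0, 7.99, and 6.55 in clone 18. Its slope was a loss of 0.68 per min (SD 0.12, exact permutation test, p = 0.00317, adjusted p = 0.0103). From 10 to 25 min the first 1 kb fell by 19.9 ± 1.62 (SD, n = 2) and from 25 to 40 min by 3.45 ± 2.83, while the change of -0.42 ± 4.95 from 0 to 10 min was within the spread between the clones. In clone 18 alone, the height and the first 1 kb had p = 0.208 each (exact permutation test), and its highest values lay at 10 min.

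**Figure D2:**
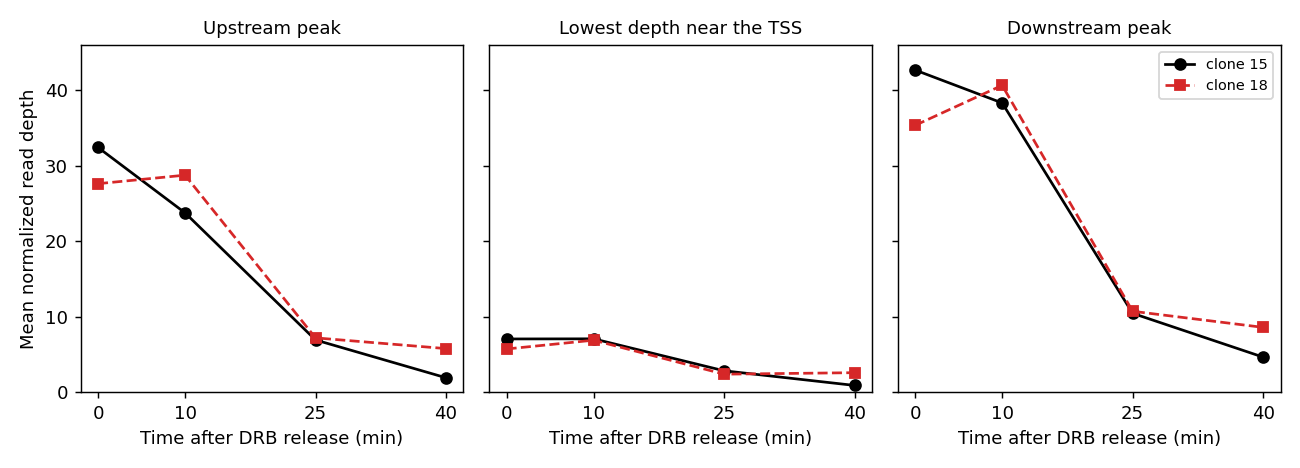
Depth of the upstream peak (left), of the lowest point near the TSS (middle), and of the downstream peak (right) against time after DRB release (min) in WT, with 1 point per clone and no averaging. All 3 were lower at 25 and 40 min than at 0 and 10 min in both clones, and at 40 min clone 18 was the higher of the pair in each panel.

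The peak lay further from the TSS at 10 min than at 0 min in both clones. Its width at 50% of its depth was larger at 10 and at 25 min. From 0 to 10 min its position moved from 512 to 774 bp in clone 15 and from 580 to 723 bp in clone 18, a shift of 202.5 ± 84.1 bp (SD, n = 2). At 25 min it lay at 714 and 791 bp, a mean change of 4 ± 90.5 bp. At 40 min the clones parted, with the highest depth at 1198 bp (clone 15) and 280 bp (clone 18). Over the 4 times the position showed no trend, as clone 15 had a slope of 14.7 bp per min and clone 18 one of -6.87 bp per min (exact permutation test over both, p = 0.583). In clone 15 the 40 min profile had no separate promoter peak, as the peak depth of 4.65 was close to the mean of 4.55 over 1 to 2 kb. The position slope and its p-value still include the 1198 bp of that profile. The width at 50% of the peak was 782, 1431, and 2000 bp in clone 15 and 826, 1017, and 1754 bp in clone 18 at 0, 10, and 25 min. It grew at each of these steps in both clones. At 40 min it was 1438 bp in clone 18 and could not be given in clone 15. Over the 7 samples with a value the width had a slope of 23.1 bp per min (exact permutation test, p = 0.0619, adjusted p = 0.0732). With times exchanged within each clone, the statistic was instead the mean of the clone slopes, 33.3 bp per min (exact permutation test, p = 0.0417, adjusted p = 0.0774). The slope of clone 15 in it, 47.9 bp per min, rests on 0, 10, and 25 min only. That of clone 18 was 18.6 bp per min and includes 40 min. The 2 slopes are thus not the same measure. Neither adjusted p passed 0.05. No baseline was removed for the width. At 25 min the peak depth was 10.4 in clone 15 and 10.7 in clone 18, over a plateau of 4.68 and 4.42 from 10 to 20 kb. The 50% level then lay close to the plateau, so the widths at 25 min cannot be separated from the raised depth of the wave.

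Upstream of the TSS the signal spread outward before it declined. In successive samples of clone 15 the depth from -2000 to -500 bp was 8.34, 15.9, 4.71, and 1.83. In clone 18 it was 8.35, 14.03, 4.83, and 3.04. It was highest at 10 min in both clones, with a rise of 6.60 ± 1.31 over the first step and a fall of 10.2 ± 1.39 over the next (SD, n = 2, exact permutation test, p = 0.33 for each, adjusted p = 0.396 over 38 steps). The slope over all 4 times, a loss of 0.22 per min, had p = 0.0504 (exact permutation test, adjusted p = 0.0655). In a window nearer the TSS, from -1000 to -200 bp, the slope was -0.53 per min (exact permutation test, p = 0.00635). At the outer end, from -2000 to -1500 bp, 10 min was above 0 min by a ratio of 5.01 in clone 15 and 2.85 in clone 18, against 1.19 and 1.34 from -1000 to -500 bp. The outer depth was 0.0979 of the inner depth at 0 min in clone 15 and 0.107 in clone 18. This ratio was 0.412 and 0.227 at 10 min, 0.562 and 0.510 at 25 min, and 0.937 and 0.569 at 40 min. After 10 min both depths fell. At 10, 25, and 40 min the outer depth was 9.29, 3.46, and 1.76 in clone 15. In clone 18 it was 5.60, 3.36, and 2.28. No baseline was removed from the ratio, so its rise after 10 min cannot show further spread. The upstream peak itself lay at -591 bp in clone 15 and -529 bp in clone 18 at 10 min. The dip near the TSS was 7.07, 2.84, and 0.902 in clone 15 and 6.89, 2.39, and 2.59 in clone 18 at 10, 25, and 40 min.

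In the first 10 min the depth rose over a stretch that began at 0.683 kb in clone 15 and 0.512 kb in clone 18 and ended near 7 kb. It fell in the windows from 10 to 120 kb. Over 1 to 2 kb it went from 5.28 to 23.4 in clone 15 and from 5.58 to 15.4 in clone 18. Over 2 to 5 kb it went from 1.39 to 7.16 and from 1.45 to 3.78. The ratio of 10 min to 0 min was highest at 2.03 kb in clone 15, where it was 7.58, and at 1.77 kb in clone 18, where it was 3.68. It fell below 1 at 6.80 and 7.02 kb. The tail of the peak, from its summit to where the depth was 10% of the summit, lengthened from 0.936 to 3.53 kb in clone 15 and from 0.964 to 2.33 kb in clone 18. The place where the ratio fell below 1 was thus similar in the clones. The tail at 10 min was longer in clone 15, and the amount of depth gained was larger. The depth gained beyond 1 kb summed to 36.2 depth units times kb in clone 15 and 17.4 in clone 18. Before scaling, the library of clone 15 at 10 min was the deeper of the pair, with 27235388 against 23534033 reads. The depths compared are those after scaling to the same total.

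From 0 to 10 min the depth fell in 11 of 15 windows in both clones without overlap, rose in 3, and in the first 1 kb the clones differed in direction. The 11 windows were those from 10 to 120 kb. The fall was greatest over 30 to 40 kb, from 1.43 to 1.18 in clone 15 and from 1.48 to 1.27 in clone 18, a change of -0.235 ± 0.0308 (SD, n = 2). Over 10 to 20 kb it was -0.185 ± 0.00538, and over 110 to 120 kb it was -0.0439 ± 0.0588, less than the SD. As every library was scaled to the same number of reads, a lower depth in one region and a higher depth in another cannot be told apart from a change in total nascent RNA.

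**Figure D3:**
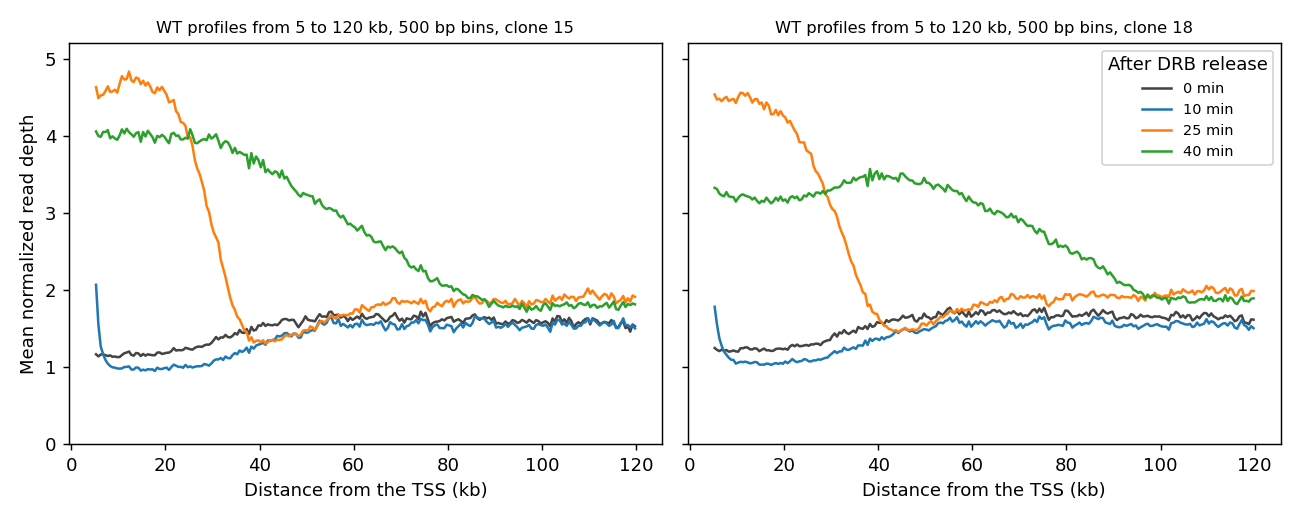
Mean normalized read depth in short bins against distance from the TSS (kb), from 5 to 120 kb, for WT clone 15 (left) and clone 18 (right), with 1 line per time after DRB release. The 25 min profile falls between about 20 and 40 kb to a low stretch (40.96 kb in clone 15, 45.1 kb in clone 18), and the 40 min profile falls more gradually over a longer distance.

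Between 10 and 25 min the depth rose in every window from 5 to 40 kb, least over 30 to 40 kb. The largest change in depth beyond 5 kb was over 10 to 20 kb, from 0.979 to 4.68 in clone 15 and from 1.05 to 4.42 in clone 18, a gain of 3.53 ± 0.236 (SD, n = 2). Over 5 to 10 kb the gain was 3.28 ± 0.104, over 20 to 30 kb 2.75 ± 0.135, and over 30 to 40 kb 0.851 ± 0.259. Over 40 to 50 kb the clones differed in direction, at -0.00434 and 0.0677. From 50 kb on the depth was again higher at 25 min in both clones, by 0.0878 ± 0.0337 over 50 to 60 kb and by 0.391 ± 0.0612 over 110 to 120 kb. These distal gains are not separate from the scaling. When each profile was scaled to its own depth over 110 to 120 kb, the changes over 40 to 60, 60 to 80, and 80 to 100 kb became -0.280, -0.0948, and -0.0558. Nearer the TSS the depth fell over this step. In clone 15 the 25 min profile was below that of 10 min from 1 to 4.05 kb, and in clone 18 from 1 to 2.78 kb.

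The stretch of lowest depth lay further out at each later time. The lowest 5 kb running mean beyond 5 kb lay at 8.22, 16.9, 40.96, and 97.6 kb in successive samples of clone 15 and at 8.06, 16.9, 45.1, and 108 kb in clone 18. As a share of the depth over 110 to 120 kb it was 73.3%, 62.1%, 69.96%, and 97.9% in clone 15 and 74.2%, 67.2%, 74.7%, and 99.5% in clone 18. At 25 min it differed from the 0 min profile at the same place by -0.199 in clone 15 and -0.156 in clone 18, although the far depth was higher at 25 min than at 0 min. A stretch below the far depth was thus present at 0 min, before release, as well as at 10 and 25 min, and nearly absent at 40 min in both clones. At 10 min it lay well beyond the raised depth, which ended at 6.80 and 7.02 kb. This measure was chosen after the values were seen and carries no test.

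Between 25 and 40 min the wave gained depth further out and lost it nearer the TSS. The gain was largest over 40 to 50 kb, from 1.38 to 3.43 in clone 15 and from 1.51 to 3.44 in clone 18, a change of 1.99 ± 0.0821 (SD, n = 2). It was 1.54 ± 0.602 over 30 to 40 kb, 1.52 ± 0.133 over 50 to 60 kb, 1.002 ± 0.224 over 60 to 70 kb, and 0.614 ± 0.304 over 70 to 80 kb. Over 80 to 90 kb it was 0.0683 in clone 15 and 0.442 in clone 18. Nearer the TSS the depth fell in both clones, with a change of -0.951 ± 0.403 over 10 to 20 kb. In that window it was still 4.01 in clone 15 and 3.18 in clone 18 at 40 min, against 1.17 and 1.23 at 0 min. The 40 min profile was below that of 25 min from 1 to 24.9 kb in clone 15 and from 1 to 28.8 kb in clone 18, above it up to 87.9 and 98.3 kb, and below it again to the end. Beyond 100 kb the fall was small and alike in the clones, -0.0927 ± 0.00304 over 100 to 110 kb.

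**Figure D4:**
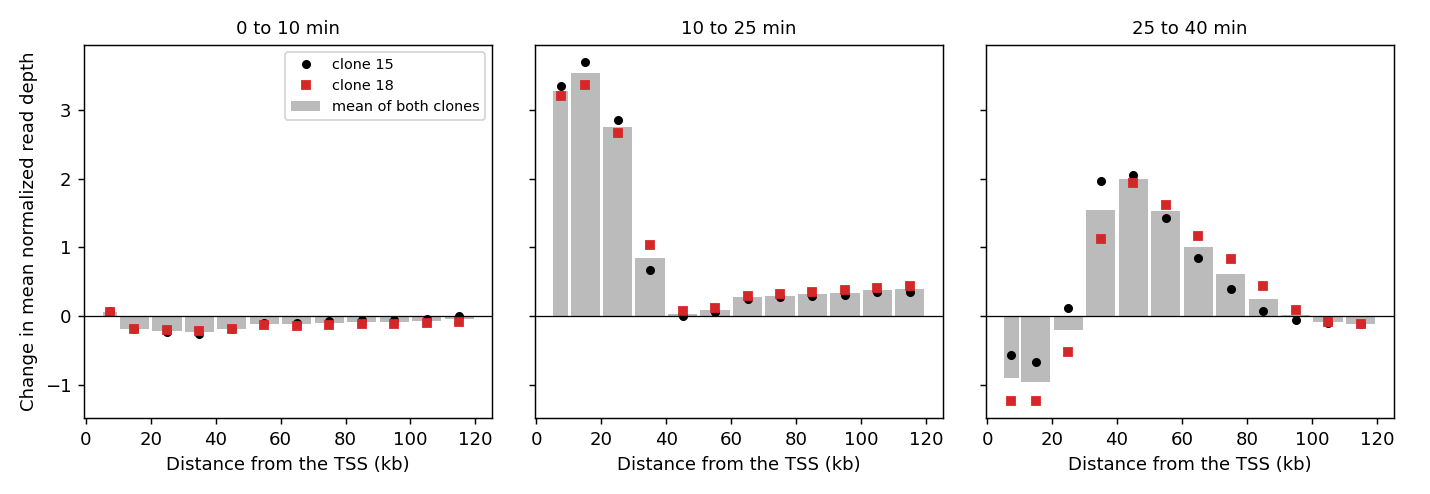
Change in mean normalized read depth between consecutive times after DRB release, by window from 5 to 120 kb from the TSS in WT (bars, mean of both clones; points, each clone). The gain moves from windows below 40 kb in the step from 10 to 25 min to windows between 30 and 90 kb in the step from 25 to 40 min, where the windows below 20 kb lose depth in both clones.

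The distance at which depth was gained increased with each step. Of the positive changes in 1 kb bins beyond 1 kb, 50% lay within 2.002 kb in clone 15 and 1.88 kb in clone 18 from 0 to 10 min, within 19.9 and 21.2 kb from 10 to 25 min, and within 45.9 and 53.0 kb from 25 to 40 min. This median distance increased by 18.6 ± 1.004 kb and then by 28.9 ± 4.14 kb (SD, n = 2, exact permutation test, p = 0.33 for each, the smallest possible). With gains counted over the 0 min profile, the last 2 medians were 17.4 and 30.6 kb in clone 15 and 18.2 and 39.5 kb in clone 18. From 10 to 25 min 10% of the gain lay within 8.05 kb and 90% within 86.5 kb in clone 15, and within 7.59 and 92.2 kb in clone 18, which takes in the distal rise that other scalings turned. From 25 to 40 min the same shares lay within 33.0 and 66.6 kb in clone 15 and within 37.6 and 77.3 kb in clone 18.

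Over all 4 times, depth rose with time in 6 of the 13 measures and fell in 2, with an adjusted p under 0.05 (exact permutation test). The 2 that fell were the promoter peak height and the first 1 kb. The summed depth from 0 to 120 kb rose at every step in both clones, from 213.6 to 232.4, 297.3, and 344.7 depth units times kb in clone 15 and from 215.5 to 219.9, 303.0, and 342.0 in clone 18. Its slope was 3.45 per min with an SD of 0.04 between clones (exact permutation test, p = 0.000397, the smallest possible, adjusted p = 0.00516). Each library was scaled to the same number of reads. The sum thus follows the share of reads that fell from 0 to 120 kb, and not total nascent RNA. It includes the distal gains that turned in direction under other scalings, and no other scaling was applied to the sum itself. The slope over 20 to 40 kb was 0.06 per min (exact permutation test, p = 0.00317, adjusted p = 0.0103). Over 5 to 20 kb it was 0.08 per min (p = 0.0294, adjusted p = 0.0484) and over 40 to 60 kb 0.04 per min (p = 0.0298, adjusted p = 0.0484), and both calls were lost when times were exchanged only within a clone (exact permutation test, p = 0.0573 and 0.0521, adjusted p = 0.0828 for each). Over 60 to 80 and 80 to 100 kb the slopes of 0.025 and 0.011 per min (exact permutation test, adjusted p = 0.0103 and 0.0258) turned to -0.00103 and -0.0116 when each profile was scaled to its mean over 0 to 120 kb. Over 1 to 5 kb, where depth rose and then fell, there was no trend (slope -0.007 per min, exact permutation test, p = 0.938). Over 100 to 120 kb the slope of 0.008 per min had adjusted p = 0.0585 (exact permutation test). Within either clone alone, each of the 5 windows that rose lost its call at an unadjusted 0.05 (exact permutation test, p from 0.0833 to 0.333). The summed depth kept its call (exact permutation test, p = 0.0417 in each clone, the smallest possible). With 4 samples only the most extreme order of the times can pass 0.05, so a window with any other order must lose its call.

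The leading edge was described by the way the 1 kb running mean fell from the plateau of the wave to its floor. As floor served the minimum of a 5 kb running mean past 5 kb, and as plateau the mean over 10 to 20 kb at 25 min and over 10 to 30 kb at 40 min. At 10 min the wave lay too near the promoter peak for a plateau. At 25 min the plateau was 4.68 in clone 15 and 4.42 in clone 18 over floors of 1.33 and 1.48, and at 40 min it was 3.99 and 3.20 over floors of 1.76 and 1.86. The wave was thus lower above its floor at 40 min in both clones.

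At 25 min the depth had fallen by 50% of the way at 29.2 kb (clone 15) and 31.2 kb (clone 18), and at 40 min at 58.5 and 80.4 kb. The advance of 39.2 ± 14.02 kb (SD, n = 2, exact permutation test, p = 0.33, adjusted p = 0.556 over 5 measures) was larger than the spread between the clones. The 90% level advanced by 14.2 kb in clone 15 and 40.6 kb in clone 18, the 75% level by 20.3 and 45.2 kb, the 25% level by 39.1 and 54.4 kb, and the 10% level by 47.3 and 56.1 kb. In kb per minute the advance was 0.949 and 2.71 at the 90% level, 1.96 and 3.28 at the 50% level, and 3.15 and 3.74 at the 10% level. On the profiles as given, each lower level had advanced further in both clones than the level above it. The clones lay furthest apart at the 90% level and closest at the 10% level. With the 0 min profile subtracted, the 50% level advanced by a mean of 32.5 kb. When the rest was also divided by the share of annotated transcripts still running, the mean advance was 48.9 kb. After that division the edge of clone 18 spanned 17.9 kb at 25 min and 16.3 kb at 40 min. Its 10% level then advanced less than its 90% level.

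The edge was steep at 25 min and shallow at 40 min. From the 90% to the 10% level it spanned 13.0 kb (clone 15) and 16.4 kb (clone 18) at 25 min. At 40 min it spanned 46.1 and 31.95 kb, an increase of 24.3 ± 12.4 kb (SD, n = 2, exact permutation test, p = 0.33). The increase was in both clones, without overlap between the times. The steepest fall over any 10 kb was -0.239 and -0.165 depth units per kb at 25 min, centred at 30 and 33.1 kb, and -0.0498 and -0.0435 at 40 min, centred at 72.6 and 89.4 kb. As a share of the height of the wave it was -7.14% and -5.61% per kb at 25 min and -2.23% and -3.25% per kb at 40 min. Fewer genes run on at greater distance, and of 8888 annotated long protein-coding transcripts 83.5% still ran at 40 kb and 46.9% at 80 kb. With the 0 min profile subtracted and the rest divided by this share, the width at 40 min was 44.1 kb (clone 15) and 16.3 kb (clone 18), against 14.1 and 17.9 kb at 25 min, so that the edge of clone 18 was no longer wider at 40 min. With the 0 min profile subtracted alone, the width at 40 min was 48.3 and 47.1 kb. After subtraction and division by the share of transcripts still running, the steepest fall was -0.256 and -0.176 at 25 min and -0.0750 and -0.0735 at 40 min, still shallower at 40 min in both clones. Relative to the distance travelled, the width was 0.445 and 0.527 of the 50% position at 25 min and 0.787 and 0.397 at 40 min, a change of opposite sign in the clones (mean 0.106 ± 0.333, exact permutation test, p = 1).

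**Figure D5:**
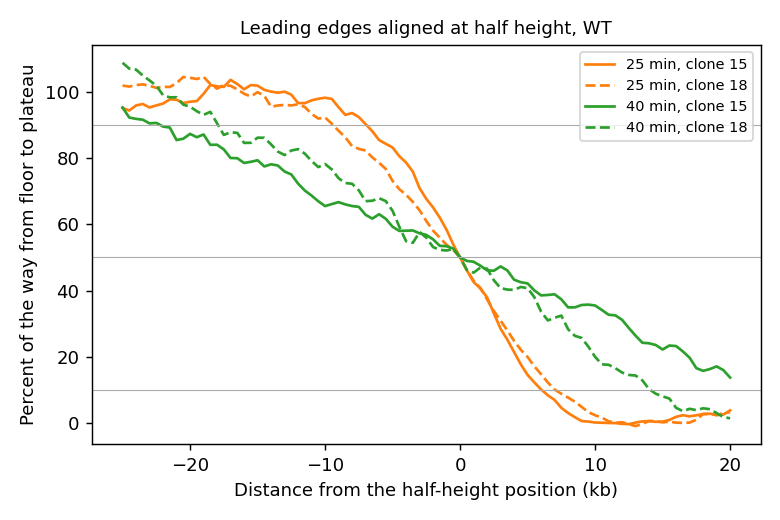
Leading edges of the 4 WT profiles at 25 and 40 min, as percent of the way from floor to plateau, against distance from the position of the 50% level (kb), in 1 kb running means. The 25 min edges (13.0 and 16.4 kb from the 90% to the 10% level) are steeper than the 40 min edges (46.1 and 31.95 kb), and clone 15 is the wider of the pair at 40 min.

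Behind the edge the slope of the plateau depended on the window it was taken over. From 5 to 20 kb at 25 min it changed by 0.00421 depth units per kb in clone 15 and by -0.015 in clone 18, which is 0.906% and -3.39% of its mean depth per 10 kb. From 5 to 40 kb at 40 min it changed by -0.008 and 0.008 per kb, or -2.10% and 2.46% per 10 kb. At 40 min clone 15 went from 4.01 over 10 to 20 kb to 3.81 over 30 to 40 kb, while clone 18 went from 3.18 over 10 to 20 kb to 3.42 over 30 to 40 kb. The change in slope between the times, 0.00530 ± 0.0251 per kb, was less than the SD (exact permutation test, p = 0.667). With the 0 min profile subtracted, the slopes at 40 min were -0.0191 and -0.00192 per kb, both negative. When the rest was also divided by the share of transcripts still running, they were -0.0102 in clone 15 and 0.00573 in clone 18, again of opposite sign. Over 10 to 20 kb alone, the slopes were negative in both clones, at -0.0194 and -0.0318 per kb at 25 min and -0.00735 and -0.00602 at 40 min. On that window the slope changed by 0.0189 per kb, in the same direction in both clones (exact permutation test, p = 0.33).

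At 40 min the WT clones thus differed from each other at both ends of the wave. Clone 15 had the lower depth over the first 1 kb (3.19 against 6.55), the higher plateau (3.99 against 3.20), and the nearer 50% position (58.5 against 80.4 kb). Its library was the deeper of the pair, with 32986997 against 25685600 reads. With 1 sample per clone the difference was not tested.

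The edge and plateau of WT were compared with those of KD at the same times, in 10 comparisons of 2 samples against 2. At 25 min the plateau slope from 5 to 20 kb was -0.0523 and -0.0505 depth units per kb in KD of clones 15 and 18, below both WT clones. The difference, WT minus KD, was 0.046 ± 0.0149 per kb (SD, n = 2, exact permutation test, p = 0.33, the smallest possible, adjusted p = 0.667). Over 10 to 20 kb alone, where WT fell too, KD had -0.0697 and -0.0688. The 50% position at 25 min lay at 27.9 and 27.4 kb in KD, nearer the TSS than in WT by 2.53 ± 1.803 kb, and the steepest fall in KD was -0.142 and -0.145 per kb, shallower than in both WT clones (difference -0.0586 ± 0.0542, exact permutation test, p = 0.33, adjusted p = 0.667 for each). With the 0 min profile subtracted and the rest divided by the share of transcripts still running, the steepest fall at 25 min was -0.179 and -0.166 in KD against -0.256 and -0.176 in WT, and the genotypes overlapped (exact permutation test, p = 0.667). At 40 min they overlapped in all 5 measures as defined above. With the same subtraction and division they did not overlap in the steepest fall at 40 min, which was -0.0750 and -0.0735 in WT and -0.0683 and -0.0684 in KD (exact permutation test, p = 0.33). The WT minus KD difference in edge width was -0.897 ± 0.393 kb (exact permutation test, p = 0.667) and in the 50% position -6.72 ± 13.1 kb (exact permutation test, p = 1). With 2 clones these comparisons cannot show that WT and KD have the same edge.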

How the data were processed

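DRB/GRO-seq profiles of 8 WT samples were analysed, with 8 KD samples for 1 comparison. The authors aligned reads to hg19 with BWA 0.5.9 (base calls from CASAVA 1.8.2, per the labels), removed rRNA and blacklisted reads, extended reads to 250 bp, scaled libraries to 20000000 reads, and took a trimmed mean (0.01) over genes. The deposited signal is this mean depth (coverage) at 122001 positions. Ensembl release and strand are not given in the sources used here.

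All values were whole multiples of 1 step (within 0.01 step), the weight of 1 read with 8359 genes left after trimming, which gave the library sizes. Groups came from titles, and clones pair samples as the same cell line. Correlations of clone deviations between consecutive times over 120 bins were -0.200, -0.0114, and 0.0782. Slopes over time and differences of means were tested by exact permutation, and pairing by sign flips or exchange within clone. Peaks used 50 bp and edges 1 kb running means. An edge level was the first position from 5 kb on where depth stayed at or below it for 1 kb. Transcripts of at least 30 kb came from GENCODE on GRCh37, the same build as hg19. Alternatives covered scaling, smoothing, windows, floor, plateau, baseline, transcript ends, pairing, and leaving out each clone. Members and measures were chosen with earlier results of these data known. No gene was named, by rule. Scripts were tested on simulated data. Python 3.11.15, numpy 2.4.6, pandas 2.3.3, and matplotlib 3.10.9 were used.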

Additional observations from a re-analysis of the deposited data

Results flagged for a closer look

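From 10 to 25 min the depth over 1 to 5 kb fell in both WT clones, by 6.03 in clone 15 and 1.52 in clone 18, and rose in both KD clones, by 3.14 and 1.48. The mean change in WT less that in KD was -6.08. It is listed because every sample of WT moved one way and every sample of KD the other, and this difference was not tested. Among the groups of 2 samples no outlying sample could be sought. The KD library of clone 15 at 10 min held 201305 reads over the first 1 kb against 934377 in KD of clone 18, and the part of that low promoter signal in the difference was not tested.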

How the results depend on the processing

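Of 371 alternatives for 68 results, 309 kept the direction and the side of an unadjusted p of 0.05, 36 turned the direction, 22 lost the threshold, and 4 gained it. The cause was not tested. No step or edge comparison can pass 0.05 with 2 clones, so its p says nothing about stability. For the comparisons of steps, edges, and distances of gained depth, pairing by sign flips reused the same mean change. These paired alternatives could only be counted as kept, and they are among the 309.

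Scaled to the mean over 0 to 120 kb, slopes per min became -0.312 (upstream, past 0.05), 0.0505 (5 to 20 kb), 0.0107 (40 to 60 kb), -0.00103 (60 to 80 kb), -0.0116 (80 to 100 kb), and -0.0138 (100 to 120 kb). Changes from 10 to 25 min became -0.387, -0.204, -0.164, and -0.113 over these last 4 windows, that over 80 to 100 kb from 25 to 40 min -0.108, and that of peak height from 0 to 10 min -1.91. Scaled to the depth over 110 to 120 kb, the slopes were 0.0295, 0.0155, 0.00255, and -0.00032 over the same 4 windows. Changes from 10 to 25 min were -0.280, -0.0948, -0.0558, and -0.00533, that over 100 to 120 kb from 25 to 40 min 0.00672, and that of the first 1 kb from 0 to 10 min 0.333.

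With the replicate block (times exchanged within a clone), the slopes of 0.0795 (5 to 20 kb), 0.0394 (40 to 60 kb), and 0.00803 (100 to 120 kb) lost the threshold. The width slope gained it, there as the mean of the clone slopes (33.3 bp per min), with no 40 min width in clone 15. With a wider running mean the width slope was 27.1 bp per min, past 0.05, and the peak moved by -15 bp from 10 to 25 min and 50 bp from 25 to 40 min. From -1000 to -200 bp the upstream slope was -0.531.

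With the 0 min profile subtracted, the plateau slope changed by -0.00386 from 25 to 40 min, and WT minus KD in the width ratio at 40 min was -0.00328. With division by transcripts still running, that ratio changed by -0.117 from 25 to 40 min, and WT minus KD at 40 min was -0.0939 for it and 0.000913 for the plateau slope. Over 10 to 20 kb the latter was 1.56e-06.

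With 1 clone left out (lowest to highest), slopes per min ranged from -1.06 to -0.836 (peak height), -6.87 to 14.7 bp (position), -0.767 to -0.600 (first 1 kb), -0.0214 to 0.0073 (1 to 5 kb), 0.0685 to 0.0906 (5 to 20 kb), 0.0579 to 0.0717 (20 to 40 kb), 0.0382 to 0.0406 (40 to 60 kb), 0.0205 to 0.0295 (60 to 80 kb), 0.0078 to 0.0146 (80 to 100 kb), and 0.0076 to 0.00846 (100 to 120 kb). Without either clone the slopes of all 6 windows from 5 to 120 kb lost the threshold, and without clone 15 so did those of peak height and the first 1 kb. From 0 to 10 min peak height changed by -4.35 to 5.29 and the first 1 kb by -3.92 to 3.08. Peak position changed by -60 to 68 bp from 10 to 25 min and -511 to 484 bp from 25 to 40 min. From 25 to 40 min the plateau slope changed by -0.0125 to 0.0231 and the width ratio by -0.129 to 0.342. WT minus KD at 40 min ranged from -16.0 to 2.57 kb (50% position), -0.0106 to 0.00467 (steepest fall), -0.00907 to 0.000355 (plateau slope), and -0.0282 to 0.161 (width ratio).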
